A study of Homo sapiens with 18 samples.

Results

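Serine, glycine and one-carbon metabolism was described here through the transcripts of 10 enzymes, PHGDH, PSAT1, PSPH, SHMT1, SHMT2, MTHFD1, MTHFD2, MTHFD1L, ALDH1L1 and ALDH1L2. They were chosen by name and all 10 were found among the 56629 gene symbols of the count tables, in every one of 18 libraries. Gene expression had been measured by sequencing of polyadenylated RNA in 2 human metastatic melanoma cell lines, to compare lines in which ARID2 was targeted by CRISPR with their controls. ARID2 is a subunit particular to PBAF, one of the SWI/SNF complexes that remodel chromatin. SKmel147 carries NRAS Q61R and 501mel carries BRAF V600E. The SKmel147 controls were Par, which carried no construct, and NT, a transduced control, and the ARID2 knockout (KO) lines were KO1.4, KO1.5 and KO3.20. NT and these KO lines carried a lentiviral Cas9 and a PLKO guide construct as a stable infection. In 501mel the controls were Par without a construct and the transduced control NTC, and the KO lines were KO1.8 and KO5.2. NTC and both 501mel KO lines carried the Lenti-CRISPR V2 vector, which delivers Cas9 and guide together. All lines were grown in DMEM with serum. What NT and NTC stand for is not written out in the labels, which also do not name the guides and do not state if lines were clones or pools. Each line had 2 libraries, and nothing in the labels places them in separate cultures, so p-values measure the spread between libraries, which may be technical.

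Cells make serine from the glycolytic intermediate 3-phosphoglycerate in consecutive steps run by PHGDH, a dehydrogenase, PSAT1, a transaminase, and PSPH, a phosphatase. Serine hydroxymethyltransferases then split serine into glycine and a one-carbon unit carried by tetrahydrofolate, SHMT1 in the cytosol and SHMT2 in mitochondria. In mitochondria MTHFD2 and MTHFD1L oxidise this unit to formate, which leaves for the cytosol, and the trifunctional enzyme MTHFD1 recharges folate with it for purine, thymidylate and methionine synthesis. ALDH1L1 in the cytosol and ALDH1L2 in mitochondria oxidise the unit of 10-formyltetrahydrofolate to carbon dioxide and make NADPH. PHGDH lies in a region that is gained in a share of melanomas, and several of these genes are known targets of ATF4, the transcription factor of the amino acid response.

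Library totals ranged from 21266522 to 35670140 counts in SKmel147 and from 16749707 to 20606855 in 501mel. ARID2 RNA was at 62.3 to 72.8 CPM in the SKmel147 control libraries, while the KO libraries held 39.8 to 57.0 CPM. In 501mel the controls had 40.9 to 43.2 CPM and the KO libraries 19.8 to 32.0 CPM, so in both cell lines the groups did not overlap. The log2 fold change of ARID2 was −0.43 ± 0.08 (SE) in SKmel147 and −0.73 ± 0.05 in 501mel, called in both by the test described below. CPM are counts scaled to a common library size, here after TMM scaling across libraries. The melanocyte lineage genes MITF, SOX10, PMEL, MLANA, TYR, DCT, TYRP1 and S100B summed to 9210 to 9795 CPM in the 501mel controls but to 166 to 263 CPM in the SKmel147 controls. In SKmel147 no more than 51 counts of PMEL and 21 of TYR were present in any line, while MITF and SOX10 were expressed, and the undifferentiated-state genes AXL, NGFR, SOX9 and EGFR summed to 1509 to 1832 CPM. That sum was 1116 to 1507 CPM in the SKmel147 KO libraries, below all controls. In 501mel the melanocyte lineage sum was 6874 to 9584 CPM in the KO libraries, with TYRP1 at 988 CPM in KO5.2, 3557 CPM in KO1.8, 3185 CPM in Par and 4364 CPM in NTC. The part of these markers in the enzyme differences below was not tested. Markers of immune, endothelial and fibroblast cells summed to at most 12.2 CPM in any library, with the fibroblast gene LUM at 6.02 CPM or more in every SKmel147 line and DCN without a count in any line. Keratinocyte markers summed to 0.559 to 0.972 CPM in the SKmel147 controls and 1.57 to 2.55 CPM in its KO libraries, and their part in the enzyme differences was not tested either.

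In the control lines the enzymes differed widely between the 2 cell lines. Levels of different genes are compared here as CPM per kilobase of exons, averaged per line. This length joins the exons of all annotated transcripts of a gene, so it can exceed that of the transcript expressed. It was 9217 bases for PHGDH and 2188 for PSAT1, and the orders below depend on it. In SKmel147 Par the order ran from PSAT1 at 119 and SHMT2 at 41.5, through MTHFD2 at 26.4, MTHFD1L at 17.0, MTHFD1 at 15.7, PHGDH at 12.7 and PSPH at 7.36, down to SHMT1 at 2.71 and ALDH1L2 at 1.56 CPM per kilobase. ALDH1L1 had no count in the control libraries of SKmel147, and 0 counts in a line allow a level of up to 0.0509 CPM in Par and 0.0524 CPM in NT (3 counts, which covers counting error only). In 501mel Par SHMT2 at 66.6, MTHFD2 at 61.9 and PHGDH at 61.8 CPM per kilobase led, and PSAT1 followed at 46.9. MTHFD1 at 25.5, PSPH at 24.0, MTHFD1L at 14.1 and SHMT1 at 5.44 came next, and ALDH1L1 and ALDH1L2 were both at 0.05 CPM per kilobase. PSAT1 thus led in one cell line and stood below SHMT2, MTHFD2 and PHGDH in the other. Without division by length PSAT1 also led in SKmel147 Par, at 261 CPM. In 501mel Par PHGDH then led at 570 CPM, before SHMT2 at 322 CPM and MTHFD2 at 301 CPM, with PSAT1 at 103 CPM.

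All 10 enzymes passed the test between the control lines of 501mel and SKmel147, where 80.7% of all genes did (edgeR quasi-likelihood test, joint fit, adjusted p under 0.05 by the Benjamini-Hochberg (BH) method). As log2 fold changes, 501mel was higher for PHGDH by 2.01 ± 0.10 (SE), PSPH by 1.30 ± 0.09, SHMT2 by 0.82 ± 0.08, MTHFD2 by 0.73 ± 0.07, SHMT1 by 0.69 ± 0.07 and MTHFD1 by 0.49 ± 0.06. It was lower for PSAT1 (−1.76 ± 0.08), MTHFD1L (−0.49 ± 0.06) and ALDH1L2 (−3.49 ± 0.27). The 3 enzymes of serine synthesis therefore did not differ in one direction. ALDH1L1, with 23 counts in Par and 1 in NTC of 501mel against 0, was higher in 501mel on a fit that depends on the added prior count, so no fold is given. Cell line and any separate handling of the cell lines cannot be told apart.

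**Figure D1:**
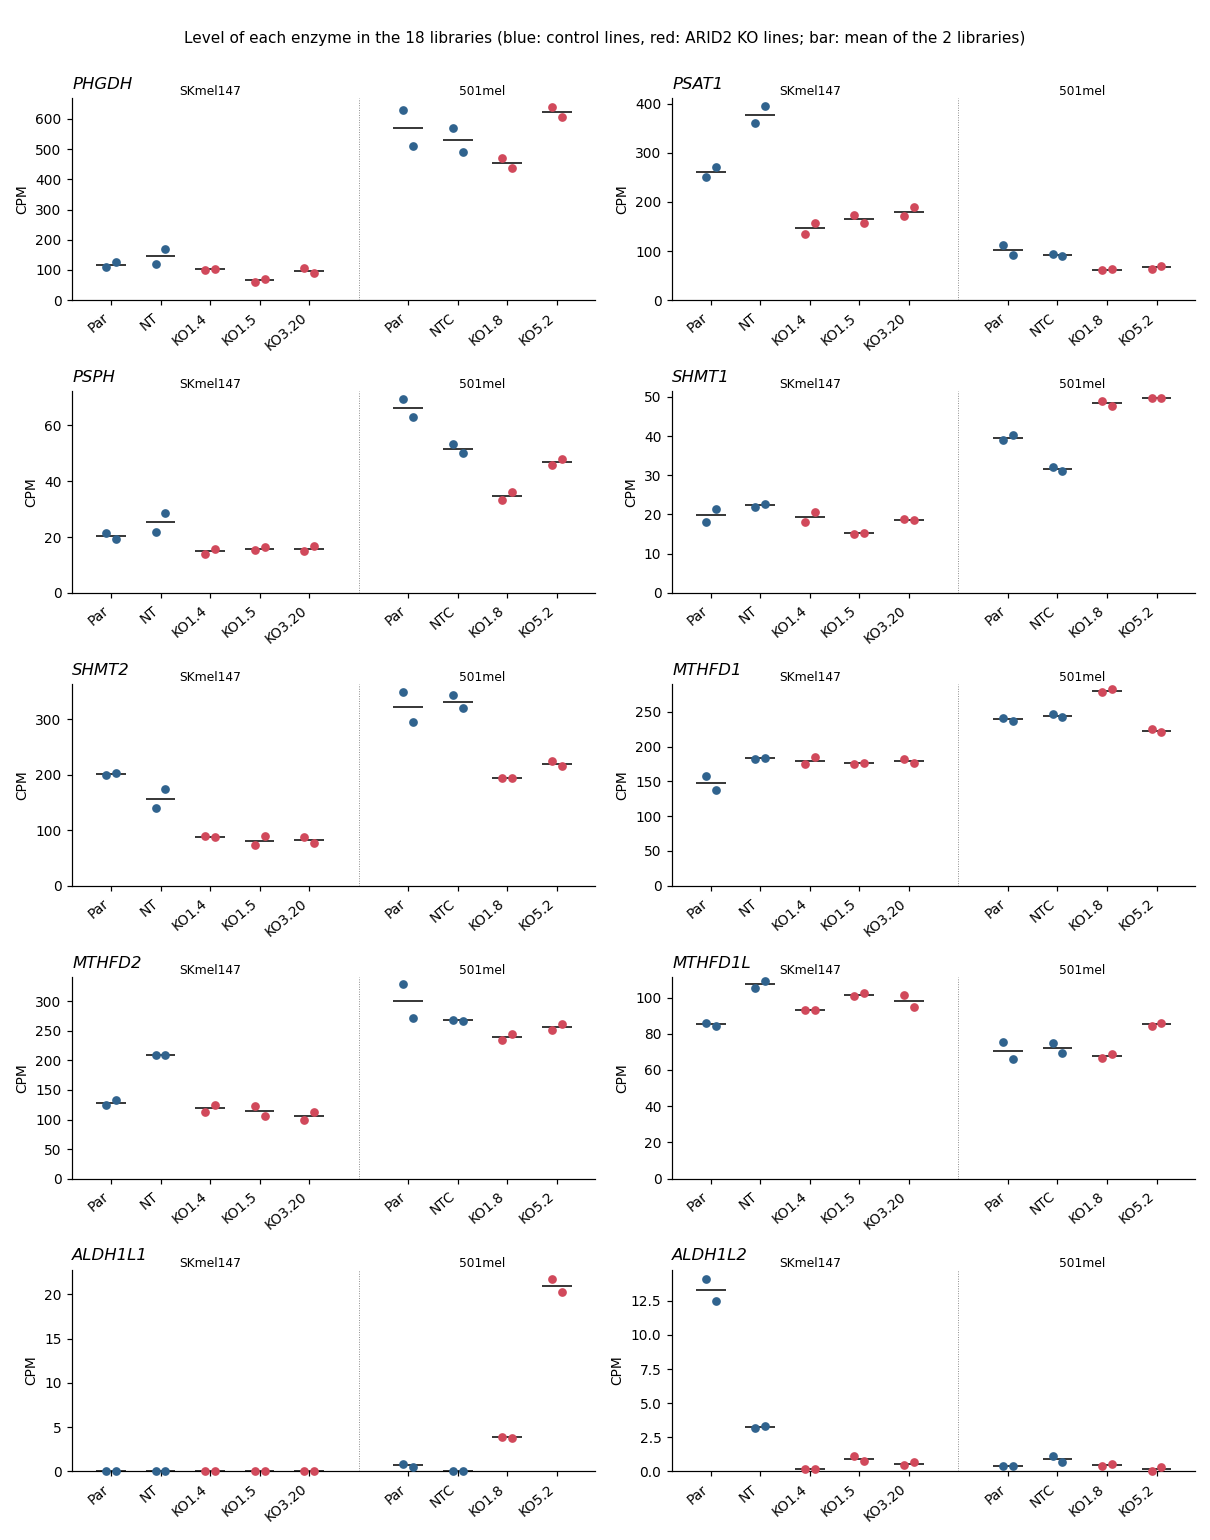
Level of each enzyme in CPM in the 18 libraries, by line, with blue points for control lines, red points for ARID2 KO lines and a bar at the mean of the 2 libraries of a line. The red SHMT2 points lie between 73.3 and 89.9 CPM in SKmel147 and between 193 and 224 CPM in 501mel, below all blue points of the same cell line, while ALDH1L1 is above 1 CPM in the 501mel KO lines alone.

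Promoters are shown for 4 enzymes that behaved differently in the comparisons below: PSAT1 fell in the KO lines of both cell lines, SHMT1 moved apart in the 2 cell lines, MTHFD1L was not called in either, and ALDH1L1 rose in 501mel. The RefSeq table (GRCh38.p14) gave 11 transcription starts for 7 of the 10 enzymes, each as 250 bases before and 50 bases after the start. PSPH, SHMT2 and ALDH1L2 had no entry. Both strands were searched for TGATGNAA, the core of composite elements at which ATF4 binds with a C/EBP partner, and for CACGTG, the E-box bound by MYC and its relatives. The motifs do not overlap each other in these promoters. Capitals mark them in the sequences, which run 5′ to 3′ on the gene's strand.
PSAT1, chr9:78296875-78297174, plus strand: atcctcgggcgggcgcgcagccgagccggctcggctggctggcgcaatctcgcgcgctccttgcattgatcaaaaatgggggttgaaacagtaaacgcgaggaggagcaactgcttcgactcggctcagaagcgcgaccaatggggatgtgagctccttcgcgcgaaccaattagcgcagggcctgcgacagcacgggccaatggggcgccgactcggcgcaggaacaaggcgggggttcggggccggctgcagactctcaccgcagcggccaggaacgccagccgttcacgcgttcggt
SHMT1, chr17:18363501-18363800, minus strand: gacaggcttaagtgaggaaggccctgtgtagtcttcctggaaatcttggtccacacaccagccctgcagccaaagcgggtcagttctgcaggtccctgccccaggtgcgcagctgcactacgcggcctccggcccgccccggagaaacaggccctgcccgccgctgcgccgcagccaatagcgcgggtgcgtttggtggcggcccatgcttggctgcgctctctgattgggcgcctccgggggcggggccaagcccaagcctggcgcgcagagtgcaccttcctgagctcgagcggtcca
MTHFD1L, chr6:150866236-150866535, plus strand: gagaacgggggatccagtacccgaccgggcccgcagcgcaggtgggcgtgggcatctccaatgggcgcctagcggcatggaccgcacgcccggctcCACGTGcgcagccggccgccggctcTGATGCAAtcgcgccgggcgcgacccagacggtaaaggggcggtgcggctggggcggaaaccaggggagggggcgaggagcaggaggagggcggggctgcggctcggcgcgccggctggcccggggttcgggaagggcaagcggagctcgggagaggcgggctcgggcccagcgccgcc
ALDH1L1, chr3:126180537-126180836, minus strand: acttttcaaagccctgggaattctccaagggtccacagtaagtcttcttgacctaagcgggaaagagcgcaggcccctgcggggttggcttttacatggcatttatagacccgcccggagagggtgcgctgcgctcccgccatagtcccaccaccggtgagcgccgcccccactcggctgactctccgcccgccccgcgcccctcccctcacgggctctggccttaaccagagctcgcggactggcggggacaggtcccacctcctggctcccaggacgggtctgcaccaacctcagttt
TGATGNAA was present in 3.62% of the 35116 promoters of the table and CACGTG in 7.26%. Among the enzymes, TGATGNAA was found in MTHFD1L, at 3 overlapping starts that share the same letters, and CACGTG was found beside it and in MTHFD1. Neither was found in the windows of PHGDH, PSAT1, MTHFD2, SHMT1 or ALDH1L1. The shown windows held 37 (PSAT1), 23 (SHMT1), 40 (MTHFD1L) and 21 (ALDH1L1) CpG sites, against a median of 14 over all promoters, while another ALDH1L1 start had 10 and another MTHFD1L start had 5. A match is a description of letters, and the absence of one says nothing about a factor's binding.

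The KO lines of SKmel147 had lower levels of 6 of the 9 enzymes tested, and of no enzyme a higher level, compared with the mean of Par and NT. The 6 were all enzymes of serine synthesis (PHGDH, PSAT1, PSPH) and the mitochondrial enzymes SHMT2, MTHFD2 and ALDH1L2. Among all 18361 genes tested 17.7% were called, 9.6% as lower and 8.07% as higher (edgeR quasi-likelihood test, BH, adjusted p under 0.05). At an unadjusted p under 0.05, 7 enzymes were lower and 0 higher, and the DESeq2 Wald test gave the same counts as edgeR, 6 lower and 0 higher. The median log2 fold change of the 9 was −0.55, beside −0.01 for all genes. In bulk RNA, fewer cells that express a gene and less RNA per cell cannot be told apart.

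The KO lines of 501mel had lower PSAT1, PSPH, SHMT2 and MTHFD2 and higher SHMT1 and ALDH1L1, 6 of 10 enzymes called where 51.3% of 16230 genes were (26.5% lower and 24.7% higher). The count of called enzymes was thus close to the background there. The median log2 fold change of the 10 was −0.12, beside −0.01 for all genes. PSAT1, PSPH, SHMT2 and MTHFD2 were lower in both cell lines, 4 of the 9 enzymes tested in both, where 4.09% of 14681 genes were lower in both. ALDH1L1 and ALDH1L2 entered the 501mel test through the lines in which they were highest. With the line as the replicate (counts summed per line, edgeR quasi-likelihood test, BH), 0 enzymes were called in either cell line. At an unadjusted p under 0.05 that test gave 6 enzymes in SKmel147, where 12.7% of all genes reached it, and 5 in 501mel, where 13.8% did, and it called 13 and 0 of all genes after adjustment.

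**Figure D2:**
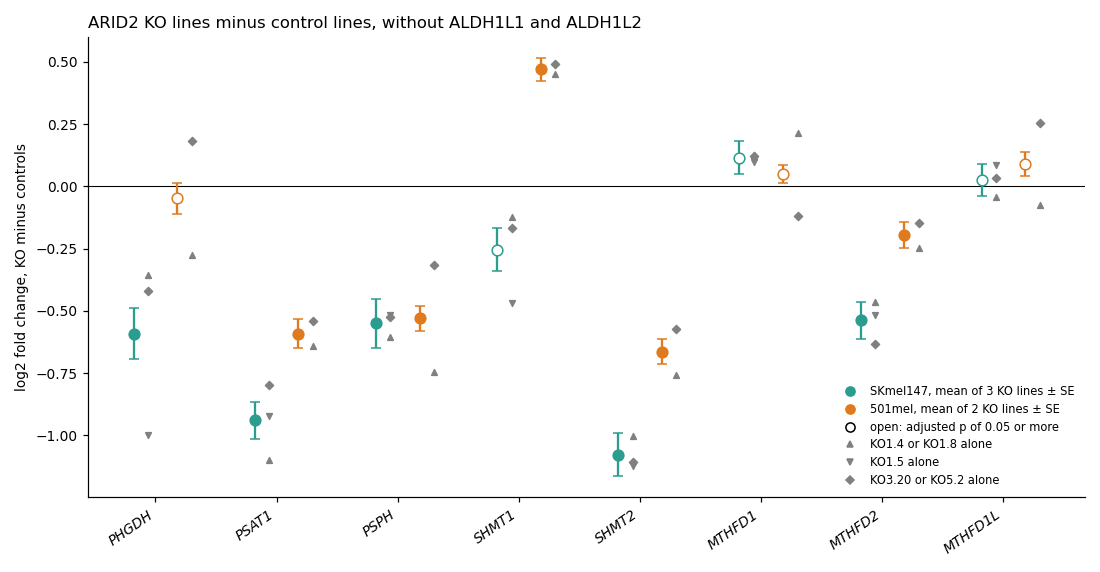
Log2 fold change of KO lines minus control lines for 8 enzymes, in SKmel147 (green, mean of 3 KO lines) and 501mel (orange, mean of 2 KO lines), with bars of ± 1 SE. Filled circles passed an adjusted p of 0.05 and open circles did not, and grey symbols give single KO lines. PSAT1, PSPH and SHMT2 lie below 0 in every KO line of both cell lines, and SHMT1 lies below 0 in SKmel147, where it was not called, and above 0 in 501mel.

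PSAT1, the transaminase of serine synthesis, was at 250.5 and 271 CPM in Par and at 359.8 and 394 CPM in NT of SKmel147. KO1.4 had 135 and 158 CPM, KO1.5 had 173 and 157 CPM and KO3.20 had 170.5 and 190.3 CPM. All 6 KO libraries were below all 4 controls. The log2 fold change was −0.94 ± 0.07 (SE), with an adjusted p of 8.27e-06 (edgeR quasi-likelihood test, BH), and it was −1.10, −0.92 and −0.80 in KO1.4, KO1.5 and KO3.20. NT was itself higher than Par by 0.53 ± 0.12, so the fold change was −0.67 against Par alone and −1.21 against NT alone, called in each. In 501mel PSAT1 was at 113, 91.9, 94.3 and 89.7 CPM in the libraries of Par and NTC, and fell to 61.1 and 63.3 CPM in the KO1.8 libraries and 63.8 and 69.8 CPM in those of KO5.2. Again the groups did not overlap, and the log2 fold change was −0.59 ± 0.06 (adjusted p = 1.54e-06, edgeR quasi-likelihood test, BH).

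PSPH, which releases serine from phosphoserine, fell in each cell line. SKmel147 had it at 21.3 and 19.4 CPM in Par, 21.99 and 28.6 CPM in NT and 14.1 to 16.7 CPM in the KO libraries (median 15.5), and in 501mel at 69.5 and 63.1 CPM in Par, 53.3 and 49.9 CPM in NTC, 33.5 and 36.3 CPM in KO1.8 and 45.9 and 48.1 CPM in KO5.2. KO and control libraries did not overlap in either. The log2 fold changes were −0.55 ± 0.10 and −0.53 ± 0.05, and their difference was 0.01 with a 95% interval of −0.24 to 0.26. In 501mel NTC was lower than Par by 0.36 on the log2 scale (−0.36 ± 0.07), and the KO5.2 change (−0.32) was smaller than the KO1.8 change (−0.74), a difference of 0.43 ± 0.07 that was called. A limma voom fit that took lines as random blocks did not call PSPH in either cell line.

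PHGDH, the first enzyme of the branch, showed no common change. In SKmel147 it was at 109.6 and 125 CPM in Par, at 119 and 171 CPM in NT, while KO1.4 had 101 and 102 CPM, KO1.5 had 61.6 and 68.8 CPM and KO3.20 had 105 and 90.0 CPM. All KO libraries lay below the controls, but KO3.20 and KO1.4 lay close to Par. The log2 fold change was −0.59 ± 0.10 (adjusted p = 0.00210, edgeR quasi-likelihood test, BH), and −0.9996 ± 0.14 in KO1.5 alone, the one line called by itself. Without KO1.5 it was −0.38 and no longer called, and it was also not called by a limma voom fit that took lines as random blocks. In 501mel PHGDH was at 629.9 and 510.1 CPM in Par, at 569.8 and 490.2 CPM in NTC, while KO1.8 had 471 and 436 CPM and KO5.2 had 639.6 and 607 CPM. KO1.8 was lower (−0.28 ± 0.08, called), KO5.2 was not called (0.18 ± 0.08), and the mean change was −0.05 with a 95% interval of −0.18 to 0.09. In a fit without KO1.8, which leaves KO5.2 as the KO line, PHGDH was higher by 0.18 and called.

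SHMT2, the mitochondrial source of glycine and one-carbon units, fell in all 5 KO lines. In SKmel147 it was at 199 and 203 CPM in Par and 139.7 and 174 CPM in NT, while KO1.4 had 89.9 and 87.2 CPM, KO1.5 had 73.3 and 89.6 CPM and KO3.20 had 88.1 and 76.7 CPM. The log2 fold change was −1.08 ± 0.09 (adjusted p = 9.34e-06, edgeR quasi-likelihood test, BH), and the 3 KO lines lay between −1.003 and −1.12. In 501mel it was at 349.6 and 295 CPM in Par and 343 and 320 CPM in NTC, while KO1.8 had 194 and 193 CPM and KO5.2 had 224 and 216 CPM. The log2 fold change was −0.66 ± 0.05 (adjusted p = 7.72e-08, same test). KO and control libraries did not overlap in either cell line.

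SHMT1, its cytosolic counterpart, was low throughout and went the other way in 501mel. It was at 38.9 and 40.3 CPM in Par and 32.2 and 31.1 CPM in NTC, while KO1.8 had 49.0 and 47.7 CPM and KO5.2 had 49.7 CPM in each library. The KO libraries were all above the controls, and the log2 fold change was 0.47 ± 0.05 (adjusted p = 8.89e-07, edgeR quasi-likelihood test, BH). NTC was lower than Par (−0.33 ± 0.07), and against Par alone the change was 0.31 ± 0.06, also called. In SKmel147 control libraries had 18.2 to 22.8 CPM of SHMT1 and KO libraries 15.1 to 20.5 CPM, which overlapped. The change there was −0.25 ± 0.09 and not called (adjusted p = 0.0609, with 95% limits of −0.44 and −0.07), KO1.5 alone was called (−0.47 ± 0.12), and without the first Par library the change was called (−0.30).

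**Figure D3:**
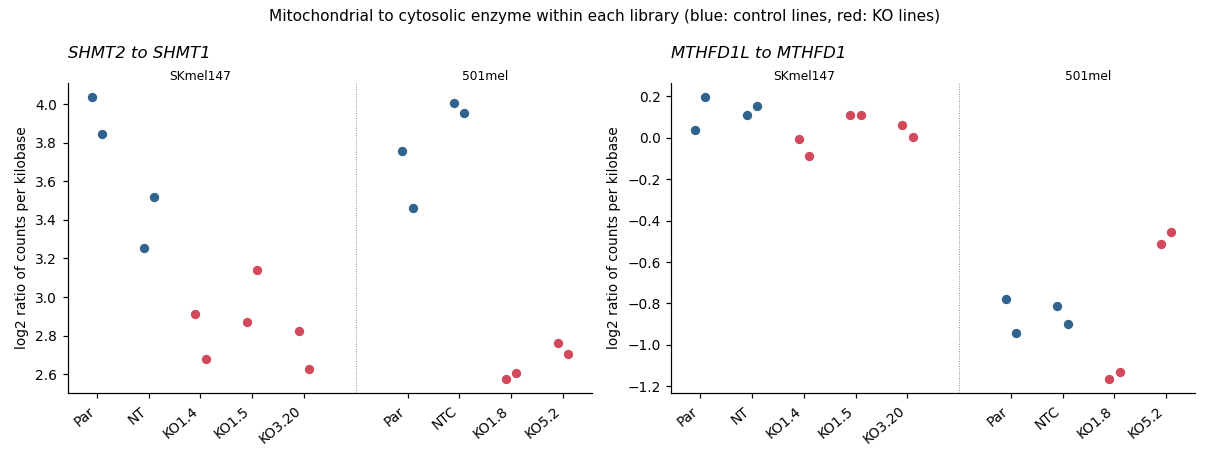
Log2 ratio of counts per kilobase within each library, SHMT2 to SHMT1 (left) and MTHFD1L to MTHFD1 (right), by line, with blue points for control lines and red points for KO lines. The SHMT2 to SHMT1 ratio of every KO library lies under every control library of its cell line, with 2.63 to 3.14 against 3.26 to 4.04 in SKmel147 and 2.57 to 2.76 against 3.46 to 4.003 in 501mel, while the ranges of the other ratio overlap.

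The plotted ratio of SHMT2 to SHMT1 needs no scaling between libraries. Its mean of line values was 3.66 in the SKmel147 controls and 2.84 in the KO lines on the log2 scale, and 3.79 and 2.66 in 501mel. Both enzymes contributed in 501mel, and in SKmel147 the lower ratio came with the fall of SHMT2. The ratio of MTHFD1L to MTHFD1, the mitochondrial and cytosolic formate enzymes, was 0.04 to 0.20 in the SKmel147 controls and −0.09 to 0.11 in the KO libraries. In 501mel it was −0.94 to −0.78 in the controls, under that in KO5.2 (−0.51 and −0.46) and over that in KO1.8 (−1.17 and −1.13). The mean MTHFD1L to MTHFD1 log2 ratio of the SKmel147 controls was 0.12, but −0.78 without division by exon length. Its sign there thus depends on that length.

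MTHFD2, the mitochondrial dehydrogenase and cyclohydrolase, depended on the control chosen. In SKmel147 it was at 124 and 133 CPM in Par, 209 and 209 CPM in NT, while KO1.4 had 113 and 125 CPM, KO1.5 had 122 and 107 CPM and KO3.20 had 99.0 and 113 CPM. The KO libraries lay well below NT but overlapped with Par. The log2 fold change was −0.54 ± 0.07 against both controls (adjusted p = 0.000447, edgeR quasi-likelihood test, BH) and −0.19 ± 0.09, not called, against Par alone, and NT was higher than Par by 0.70 ± 0.11. The voom fit by line did not call MTHFD2 in either cell line. In 501mel it was at 330.2 and 272 CPM in Par, 268 and 267 CPM in NTC, 235 and 244 CPM in KO1.8 and 252 and 262 CPM in KO5.2. The groups did not overlap, and the change was small, −0.20 ± 0.05 (adjusted p = 0.00548, same test). It was not called against NTC alone (−0.11) or in KO5.2 alone (−0.15).

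MTHFD1 and MTHFD1L, the formate-handling enzymes of cytosol and mitochondria, were not called in either cell line. In SKmel147 the changes were 0.12 for MTHFD1 (95% interval −0.03 to 0.26) and 0.03 for MTHFD1L (−0.11 to 0.16), and no KO line was called for either. Against Par alone MTHFD1 was higher by 0.27 and called. In 501mel the mean changes, 0.05 for MTHFD1 (−0.03 to 0.12) and 0.09 for MTHFD1L (−0.02 to 0.19), joined KO lines that differed. MTHFD1 was at 237 to 246 CPM in the controls, 278 and 283 CPM in KO1.8 (0.22 ± 0.04, called) and 225 and 220.3 CPM in KO5.2 (−0.12 ± 0.04, called). MTHFD1L was at 65.9 to 75.2 CPM in the controls, 66.4 and 69.1 CPM in KO1.8 (−0.08, not called) and 84.4 and 85.9 CPM in KO5.2 (0.25 ± 0.06, called), and without the first Par library its mean change was called (0.14). Without KO1.8 the mean change of MTHFD1L was called (0.25), and without KO5.2 that of MTHFD1 was (0.22).

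ALDH1L2, the mitochondrial formyltetrahydrofolate dehydrogenase, had the largest change of the enzymes tested in SKmel147. Its counts were 502 and 290 in Par, 94 and 92 in NT, 3 and 6 in KO1.4, 37 and 21 in KO1.5 and 15 and 20 in KO3.20. NT was thus already far below Par, by a ratio of 4.14 (95% counting interval 3.52 to 4.88), and every KO library was below NT. Par exceeded KO1.4 75.1-fold (39.4 to 165), KO3.20 24.1-fold (17.2 to 34.9) and KO1.5 14.2-fold (10.8 to 18.8), while NT exceeded them 18.2-fold, 5.83-fold and 3.42-fold. The fitted log2 fold change was −3.84 ± 0.18 (adjusted p = 1.37e-07, edgeR quasi-likelihood test, BH), and NT minus Par was −2.03 ± 0.22. ALDH1L2 was also the one enzyme that differed between the KO lines of SKmel147 (adjusted p = 0.0114, same test on 2 degrees of freedom), where 5.46% of genes were called. Without either KO1.4 library or the first KO1.5 library no enzyme was called there. In 501mel it had 6 to 33 counts per line, and its change of −1.14 ± 0.49 was not called. KO5.2 alone was called (−1.93 ± 0.67), as was the change against NTC alone (−1.69 ± 0.51). Without the second KO5.2 library, which leaves one with 0 counts, the fitted value was −3.43 and called.

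ALDH1L1, the cytosolic form, was detected in 501mel at 14 and 9 counts in Par, 1 and 0 in NTC, 74 and 79 in KO1.8 and 413 and 402 in KO5.2. In SKmel147 it had 1 count in 10 libraries and was not tested. Both 501mel KO lines stood above both controls, which differed from each other, and KO5.2 stood above KO1.8 by 2.45 ± 0.14 on the log2 scale. Against Par, KO1.8 was 5.67-fold higher (95% counting interval 3.64 to 9.21) and KO5.2 was 30.95-fold higher (20.5 to 49.1). Against NTC, which had 1 count, the ratios were 143 (25.2 to 5670) and 779 (139 to 3.08e+04). The fitted log2 fold change was 3.71 ± 0.21 against Par alone. Against the mean of the controls it was 5.89 (adjusted p = 8.33e-11, edgeR quasi-likelihood test, BH), which NTC raises. The SE from that test, 0.23, does not reflect that NTC had 1 count. With single libraries left out the value ran from 5.40 to 7.07, and with the line as the replicate it was 5.16 ± 1.31. The voom fit by line did not call ALDH1L1. Even in KO5.2 the gene was at 21.7 and 20.2 CPM, or 1.53 CPM per kilobase, under every other enzyme except ALDH1L2. The rows of 2 antisense genes, ALDH1L1-AS1 and ALDH1L1-AS2, held at most 1 count in any line.

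Single KO lines, each set against both controls of its cell line, were called for 8.77% (KO1.4), 11.2% (KO1.5), 12.6% (KO3.20), 40.2% (KO1.8) and 53.5% (KO5.2) of all genes. With a single control line, all KO lines together were called for 19.8% of genes against Par and 11.3% against NT in SKmel147, and for 39% against Par and 49.6% against NTC in 501mel. PSAT1, PSPH, SHMT2, MTHFD2 and ALDH1L2 were lower and called in each of the 3 SKmel147 KO lines, where 1.8% of genes were. Without either library of KO1.4, the second of KO1.5 or the first of KO3.20, 3 enzymes met this. In 501mel PSAT1, PSPH and SHMT2 were lower in both KO lines (11.7% of genes) and SHMT1 and ALDH1L1 higher in both (12.3%). By libraries, PHGDH, PSAT1, PSPH, SHMT2 and ALDH1L2 in SKmel147 had all KO below all control libraries, as 4.59% of genes had. In 501mel this held for PSAT1, PSPH, SHMT2 and MTHFD2 (13.9% of genes), and KO libraries were all above the controls for SHMT1 and ALDH1L1 (13.2%).

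The 2 KO lines of 501mel differed from each other for 5 of the 10 enzymes, where 41.3% of genes differed. KO5.2 was higher than KO1.8 for ALDH1L1, PHGDH (0.46 ± 0.09), PSPH (0.43 ± 0.07) and MTHFD1L (0.33 ± 0.07) and lower for MTHFD1 (−0.33 ± 0.05). PSAT1, SHMT1, SHMT2, MTHFD2 and ALDH1L2 were not called between them. The control lines also differed. NT of SKmel147 was higher than Par for PSAT1 and MTHFD2 and lower for ALDH1L2, 3 of 9 enzymes where 9.27% of genes were called. NTC of 501mel was lower than Par for PSPH, SHMT1 and ALDH1L1, 3 of 10 where 15.7% were. Across genes, NT minus Par in SKmel147 fell with GC content (Spearman's rho −0.41, a description over genes), and the 3 called enzymes had 42.3% (PSAT1), 41.4% (MTHFD2) and 42.1% (ALDH1L2) GC in their exons, the first pair higher and ALDH1L2 lower in NT. After correction for GC content and length 5 enzymes were higher in NT. Without the second NT library, 1 was higher and 2 were lower. In 501mel 5 enzymes were lower in NTC without the second Par library, and 1 was without the second NTC library.

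The change in the KO lines differed between the cell lines for 6 of 9 enzymes, where 21.3% of 19518 genes differed (interaction contrast of the joint fit of 18 libraries, edgeR quasi-likelihood test, BH). All 6 differences, taken as 501mel minus SKmel147, were positive, where 9.99% of genes were called in that direction. SHMT1 differed by 0.71 ± 0.10, from −0.25 to 0.47, and ALDH1L2 by 2.68 ± 0.60. PHGDH differed by 0.54 ± 0.14, SHMT2 by 0.40 ± 0.11, PSAT1 by 0.34 ± 0.11 and MTHFD2 by 0.33 ± 0.10, each with a more negative value in SKmel147. PSPH, MTHFD1 (−0.08, 95% interval −0.23 to 0.08) and MTHFD1L (0.06, −0.11 to 0.23) were not called, and ALDH1L1 could not be estimated because SKmel147 lacked counts. With Par as the one control, the differences of PSAT1 (−0.0025) and MTHFD2 (−0.10) were not called, and PHGDH (0.33) was not called either. With the transduced controls alone SHMT2 (0.20) and ALDH1L2 (1.11) were not called. SHMT1 was the one of the 6 that the voom fit by line also called, and ALDH1L2 was at 0.21 and not called without the second KO5.2 library. PSAT1 and MTHFD2 also lost the call when single libraries were left out, as given in the closing section.

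Changes of chromosomal neighbours were measured beside each enzyme. For each enzyme the median log2 fold change of 50 tested genes on the same chromosome was taken, in each KO line against the same controls. These were the 25 next genes on each side in order of position, at any distance. In SKmel147 the neighbours of SHMT2 on chromosome 12 lay at −0.15 to −0.20, against −1.003 to −1.12 for the gene, and those of PSAT1 on chromosome 9 at −0.42 for KO1.4, −0.09 for KO1.5 and −0.04 for KO3.20. The ALDH1L2 neighbours, also on chromosome 12, lay at −0.17 for KO1.4, −0.08 for KO1.5 and −0.165 for KO3.20. This chromosome also differed between the SKmel147 controls, with a median of −0.26 for NT minus Par. There the SHMT2 neighbours lay at −0.40, with the gene at −0.36, and the ALDH1L2 neighbours at −0.39, with the gene at −2.03. In KO5.2 of 501mel the PSAT1 neighbours lay at −0.60 and PSAT1 itself at −0.54, and all of chromosome 9 had a median of −0.51. In KO1.8 those neighbours lay at −0.11, with PSAT1 at −0.64. SHMT2 neighbours in 501mel lay at −0.31 and −0.40, with the gene at −0.76 and −0.57. In KO5.2 the neighbours of MTHFD1L on chromosome 6 lay at 0.23, beside 0.25 for the gene, and those of MTHFD1 on chromosome 14 at −0.39, beside −0.12. The neighbours of SHMT1 (−0.04 and −0.08) and ALDH1L1 (−0.12 and −0.04) were near 0 in both 501mel KO lines. The part of the neighbourhood in the enzyme differences was not tested.

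**Figure D4:**
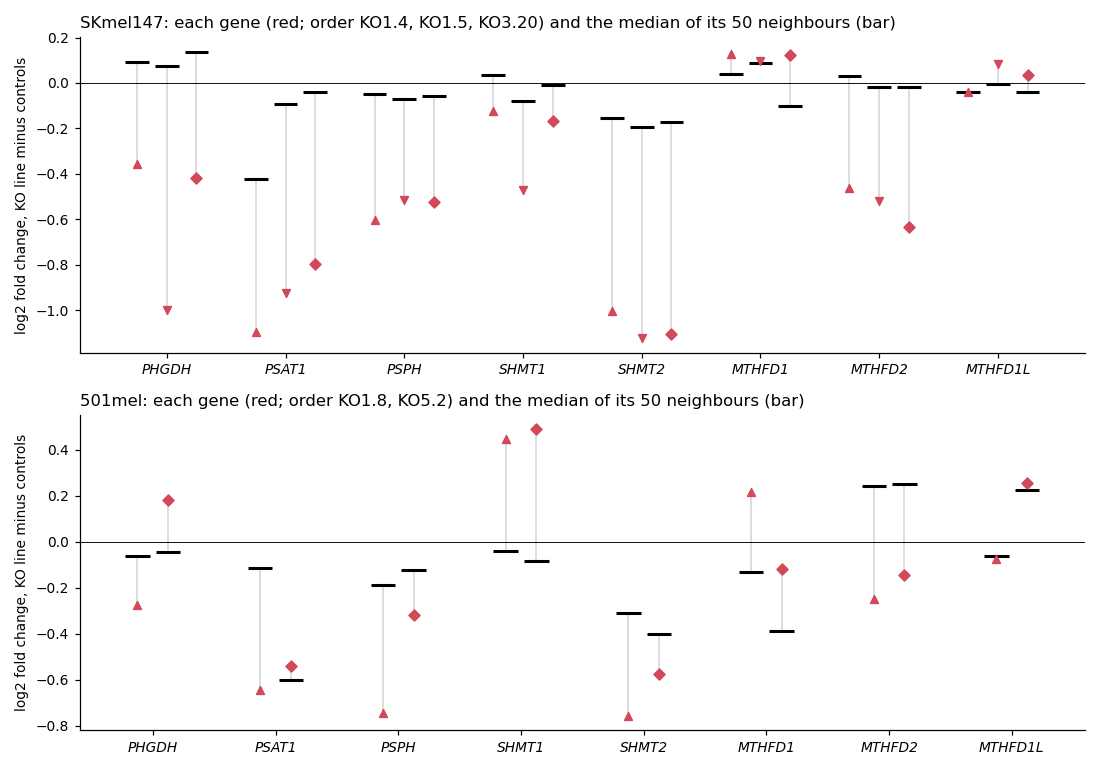
Log2 fold change of 8 enzymes in each KO line against the controls (red symbols) and the median of 50 tested neighbour genes, 25 on each side (black bars), in SKmel147 (top) and 501mel (bottom). PSAT1 in KO5.2, at −0.54, sits beside its neighbours at −0.60, whereas SHMT2 in SKmel147 lies near −1.1 with its neighbours between −0.15 and −0.20.

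Of 27 genes of the amino acid response that ATF4 governs, chosen with earlier results of these data known, 26 were tested in each cell line. In SKmel147 16 fell and 2 rose (median −0.38), and in 501mel 18 fell and 0 rose (median −0.37). The medians over all genes were −0.01, and 9.6% of all genes fell and 8.07% rose in SKmel147 and 26.5% fell and 24.7% rose in 501mel. In 501mel 19 were lower and 1 higher at an unadjusted p under 0.05 (edgeR quasi-likelihood test), and DESeq2 called 17 lower and 0 higher. In SKmel147 ATF4 itself changed by −0.65 ± 0.07, its partner CEBPG by −0.63 ± 0.07, the alanine transaminase GPT2 by −0.81 ± 0.10 and the lipoprotein receptor VLDLR by −1.07 ± 0.12. In 501mel VLDLR changed by −0.90 ± 0.05, the stress factor DDIT3 by −1.34 ± 0.09, the tryptophanyl-tRNA synthetase WARS by −0.75 ± 0.06 and the mitochondrial PEP carboxykinase PCK2 by −1.08 ± 0.11. DDIT3 was at 47.3 CPM in Par, 24.5 CPM in NTC, 12.4 CPM in KO1.8 and 14.4 CPM in KO5.2. The size of its change thus depended on the control. The control lines also differed in this list, with 5 higher and 1 lower in NT against Par and 2 higher and 12 lower in NTC against Par, where 9.27% and 15.7% of all genes were called in either direction. With the line as the replicate (edgeR quasi-likelihood test) 0 of these genes were called in either cell line. At an unadjusted p under 0.05 that test gave 16 in SKmel147 and 8 in 501mel, where 12.7% and 13.8% of all genes reached it. The voom fit by line gave 9 and 4 as lower, and its share over all genes is not given. Against NTC alone, 10 were lower and 3 higher in 501mel. That was close to the 49.6% of all genes called in either direction in that comparison.

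Of 17 tested genes that use one-carbon units, 1 rose and 1 fell in SKmel147, where 8.07% and 9.6% of all genes did. The one that fell was ADSL of purine synthesis (−0.35 ± 0.07), which was not called against NT alone (−0.18). In 501mel 5 of 16 rose and 4 fell, and 51.3% of all genes were called there. Among them MAT2A (0.48 ± 0.04) and AHCY (0.28 ± 0.04) of the methionine cycle rose and PFAS of purine synthesis fell (−0.26 ± 0.04), with PFAS not called without KO5.2 (−0.11). Of 7 genes of folate transport and storage 0 were called in SKmel147 by edgeR (1 higher and 1 lower at an unadjusted p, and 1 lower by DESeq2) and 1 in 501mel. That one was GGH, which trims folate tails, at 44.5 CPM in Par, 37.6 CPM in NTC, 43.1 CPM in KO1.8 and 60.8 CPM in KO5.2. Its change of 0.33 ± 0.06 was not called against Par alone (0.20) or without KO5.2 (0.078).

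Of 18 genes of serine and glycine supply, 4 fell and 0 rose in SKmel147 (9.6% and 8.07% of all genes). They were the neutral amino acid transporters SLC1A4 (−0.84 ± 0.09) and SLC1A5 (−0.49 ± 0.10), the glycine transporter SLC6A9 (−0.82 ± 0.15, not called against NT alone) and CBS, which joins serine to homocysteine (−1.27 ± 0.17). CBS was at 13.0 CPM in Par and 14.75 CPM in NT. It was at 10.5 CPM in KO1.4, 4.19 CPM in KO1.5 and 4.31 CPM in KO3.20, so KO1.4 lay closer to the controls. In 501mel 8 rose and 4 fell, beside 24.7% and 26.5% of all genes. The mitochondrial serine carrier SFXN1 rose (0.25 ± 0.05), and CTH, the next enzyme after CBS (−0.81 ± 0.10), and SPTLC2 of sphingolipid synthesis (−0.31 ± 0.06) fell. CTH was also lower in NTC than in Par (−0.70 ± 0.14). SLC1A5 was at 246 CPM in Par, 187 CPM in NTC, 222 CPM in KO1.8 and 304 CPM in KO5.2. KO1.8 thus lay below Par, NTC was lower than Par (−0.40 ± 0.07), and the change of 0.28 ± 0.05 was not called against Par alone (0.081) or without KO5.2 (0.053). Of 5 regulators tested, 0 rose and 1 fell in SKmel147, where 17.7% of all genes were called in either direction. In 501mel 2 rose and 2 fell, where 51.3% were called. MYC changed by −0.54 ± 0.10 in SKmel147, not called against NT alone (−0.38), and by −0.33 ± 0.04 in 501mel. In 501mel EHMT2 was also called (0.14 ± 0.04), though not against Par alone or without KO1.8. KEAP1 (0.14 ± 0.05) and KDM4C (−0.22 ± 0.08) were called by edgeR but not by DESeq2, and with 1 of 8 libraries left out they were called in 2 and 4 of the fits. KDM4C was at 15.5 CPM in KO1.8, between the NTC and Par levels, and at 10.6 CPM in KO5.2, below both.

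Likeness across the 9 lines was taken on log2 CPM centred within each cell line, with lines that share controls and depth, and is given as a description. PSAT1 followed PSPH most closely (r = 0.92), then MTHFD2 (0.87) and SHMT2 (0.85), while SHMT1 stood at 0.09 and PHGDH at 0.67 with PSAT1. Among 8857 genes, those most like PSAT1 were RPRD2 (0.99), H3F3AP4 and FMR1 (both 0.95), and those most like PSPH were FMR1, CCNI (both 0.95) and EFNA5 (0.945). Most like SHMT2 were TMEM165 and ATF4P3 (both 0.98) and MAPKAPK2 (0.97), and most like MTHFD2 were TOMM20 (0.98), the asparagine synthetase ASNS (0.97) and NUP93 (0.96). H3F3AP4 and ATF4P3 are processed copies whose rows may take reads of their parent genes. Rows of such copies of the enzymes held 3.46 to 4.65% of the PSAT1 count, 1.72 to 5.95% of the PSPH count, 0.298 to 3.87% of the MTHFD2 count and up to 2.24% of the MTHFD1 and 1.19% of the SHMT1 count in a line.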

How the data were processed

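Polyadenylated RNA of 18 libraries (9 lines, 2 libraries each) was sequenced from strand-specific kits. Reads were aligned with STAR 2.6.0 to GRCh37 (hg19) and counted per gene with featureCounts, per the submitters' processing notes. For the annotation release, the strand setting and multi-mapping reads the entry is: not given in the sources used here. The authors deposited 1 table of raw counts per cell line, each with 56629 gene symbols, and no column lacked a sample. The SKmel147 table heads the columns of its transduced control NTC where the titles write NT.

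Each cell line was fitted separately with edgeR 4.0.16 (R 4.3.3) after TMM scaling and its low-count filter by line, with 1 coefficient per line and tested by quasi-likelihood. Adjustment of p-values ran over all tested genes by the Benjamini-Hochberg method, with calls under 0.05. KO lines and control lines were each averaged with equal weights. Each SE was the size of the log2 fold change divided by the square root of the F value of its test. Differences between the cell lines came from a joint fit of 18 libraries and 19518 genes. Alternatives used DESeq2 1.42.0, limma 3.58.1 (voom with the line as a random block), counts summed per line, other filters, scalings and controls, and left-out libraries or lines. Exon lengths and GC content came from GENCODE 29, matched by symbol for 35245 symbols, 1221 of them through an older symbol. Count ratios carry exact binomial 95% intervals, which cover counting error only. The fits were also run on simulated counts, with changes of 0.5 or 1 on the log2 scale. In SKmel147 56% and 94% of these were called, and in 501mel 82% and 98%. The simulated lines differed by the KO change alone, unlike the real lines. This run therefore does not test how line differences affect the calls.

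The enzymes and all gene lists were chosen with earlier results of these data known. Described in full were the 10 enzymes. From each other list, up to 4 called genes with the smallest p-values in a cell line were named, and 3 genes of mean log2 CPM of at least 3 were named as most alike for each enzyme called in KO lines of both cell lines in the same direction. A result of the list of genes that use one-carbon units is not reported here.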

Additional observations from a re-analysis of the deposited data

Results flagged for a closer look

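Of 39 groups of 4 to 6 libraries tested for a library far from the rest, 2 held one, and chance gives about 1 in 20. ALDH1L1 was at 0.0367 CPM in the second KO1.5 library of SKmel147 and had no count in the other KO libraries, which is a single count. MTHFD2 was at 330.2 CPM in the first Par library of 501mel, while the other control libraries lay between 267 and 272 CPM.

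The change in the KO lines differed between the cell lines by the interaction contrast (501mel minus SKmel147) for 6 enzymes. The log2 differences were 0.54 for PHGDH, 0.34 for PSAT1, 0.71 for SHMT1, 0.40 for SHMT2, 0.33 for MTHFD2 and 2.68 for ALDH1L2.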

How the results depend on the processing

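Of the enzymes' values recomputed under the alternatives, 594 kept their direction and side of the threshold, 72 lost a call, 12 gained one and 26 changed sign. Requiring more than a 2-fold change left 2 enzymes lower in the SKmel147 KO lines and 2 in every line, 0 higher in NT, 1 higher and 0 lower in the 501mel KO lines (also in every line), 1 lower in NTC, 1 between the 501mel KO lines, 1 in the difference between cell lines and 3 higher between control lines. With the line as the replicate 0 were lower in SKmel147, 0 higher and 0 lower in 501mel and 0 differed between cell lines. With voom and the line as a block these counts were 3, 1, 2 and 1. With Par alone 1 was higher in SKmel147, 3 were lower in every line and 3 differed between cell lines. After GC and length correction 5 were higher in NT and 2 differed between the SKmel147 KO lines, as 2 did without the low-count filter. Without KO1.8, 4 were higher in 501mel, and without KO5.2, 2 differed between cell lines. For most of these settings, and for the left-out libraries below, the share of all genes called is not given. These counts therefore do not show an excess over other genes. The cause was not tested. Neither DESeq2 nor the 2-fold limit was run for the comparison among the 3 SKmel147 KO lines.

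Leaving out 1 library at a time gave 3 to 6 enzymes lower in every SKmel147 KO line, 1 to 3 higher and 1 to 2 lower in NT, 0 to 2 between the SKmel147 KO lines, 1 to 5 lower in NTC and 3 to 6 in the difference between cell lines (3 without the second KO5.2 library). In that difference PSAT1 was not called without the second library of NT, the first of KO1.4, the second of KO1.5 or the first of KO3.20 in SKmel147, or without the second of Par, either of NTC, or the second of KO1.8 or KO5.2 in 501mel (0.27 to 0.42 over all libraries left out). MTHFD2 was not called without the second Par, first NTC, second KO1.8 or second KO5.2 library of 501mel (0.27 to 0.41). Without a whole line, PSAT1 lost the call without KO1.4 (0.26) or KO5.2 (0.30), MTHFD2 without KO3.20 (0.28) or KO5.2 (0.29), PHGDH without KO1.5 (0.33) or KO5.2 (0.32), SHMT2 without KO5.2 (0.32) and ALDH1L2 without KO1.8 (1.88).

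Signs changed for the following values, some of them called as reported (among them KDM4C and the PSAT1 and MTHFD2 differences between cell lines). With the transduced control alone MTHFD1 was −0.042 and MTHFD1L −0.14 in SKmel147, PHGDH 0.0057 and NUP93 0.012 in 501mel, and the MTHFD1 difference 0.064. NUP93 in 501mel was 0.042 after GC and length correction and 0.0032 with the line as the replicate. Without KO1.8 PHGDH was 0.18 and MTHFD1 −0.12 in 501mel, and without KO5.2 MTHFD1L was −0.076 and KDM4C 0.051. Left-out libraries gave −0.12 to 0.039 for PHGDH and −0.026 to 0.014 for NUP93 in 501mel. In the difference between cell lines MTHFD1 was 0.0095 after GC and length correction. With Par alone that difference was −0.0025 for PSAT1, −0.32 for PSPH, −0.10 for MTHFD2 and −0.091 for MTHFD1L. For PSPH it was −0.020 without KO1.4, −0.19 without KO5.2 and −0.10 to 0.10 with single libraries left out, and without KO5.2 it was 0.10 for MTHFD1 and −0.10 for MTHFD1L. Without division by exon length the log2 SHMT2 to SHMT1 ratio was 3.07 in controls and 2.25 in KO lines of SKmel147 and 3.205 and 2.07 in 501mel. The MTHFD1L to MTHFD1 ratio was then −0.78, −0.87, −1.76 and −1.72 in the same order.

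Replicate numbers did not pair the libraries in a uniform way. Deviations of same-numbered libraries correlated at −0.58 to 0.67 over 10 pairs of SKmel147 lines and at 0.0011 to 0.25 over 6 pairs of 501mel lines. In SKmel147 Par, NT and KO1.5 correlated with each other at 0.35 to 0.67 and negatively with KO1.4 and KO3.20. A block on the replicate number cannot describe such a split. In 501mel 4 pairs were over 0.1. With the replicate block, 0 enzymes were higher and 6 lower in the SKmel147 KO lines, 2 were higher and 4 lower in 501mel, 4 were lower in every 501mel KO line, 6 differed between the 501mel KO lines and 6 between the cell lines. ALDH1L1 in SKmel147 and ALDH1L2 in 501mel had too few counts for a precise value.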
